A study of Mus musculus with 7 samples.

Results

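Interferon-inducible GTPases were examined in mouse adrenal cells sorted on 2 fluorescent reporters. The group held 10 genes chosen by symbol: the guanylate-binding protein genes Gbp2, Gbp3, Gbp5, Gbp6 and Gbp7 and the immunity-related GTPase genes Irgm1, Irgm2, Igtp, Iigp1 and Tgtp1. A value was found for 9 of them among 20719 genes with a symbol, and Igtp was not analysed here on the arrays because no row carried its symbol. The rule itself uses symbols only, and the genes were chosen with earlier results of these data known.

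These proteins are cell-autonomous defence factors. Interferon gamma binds its receptor and signals through Janus kinases, and induced transcription factors such as IRF1 help to switch on both GTPase families in almost any nucleated cell type, including endothelial cells and macrophages. Guanylate-binding proteins and effector immunity-related GTPases then coat and disrupt the vacuoles in which parasites and bacteria live, while the IRGM proteins keep the effector GTPases inactive on the cell's own membranes. Resting tissue usually expresses them at a low level.

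Wnt+ libraries (3 arrays) came from TCF/Lef:H2B-GFP mice, in which multimerised TCF/LEF sites and a minimal Hspa1b promoter drive a histone-GFP fusion. SF1+ libraries (4 arrays) came from Sf1:eGFP mice, in which a bacterial artificial chromosome fragment of Nr5a1 drives eGFP. All mice were C57BL/6J males of 6 weeks, and each array held RNA of viable GFP-positive cells from a separate sort of 10 pooled adrenals. Each reporter was carried by its own transgenic line, so the line and the cell population cannot be told apart. In such bulk samples, fewer cells of a type and less RNA per cell cannot be told apart either. All values are the deposited log2 expression values of Affymetrix Mouse Gene arrays, differences are Wnt+ minus SF1+ on the log2 scale, and errors of differences are standard errors of a limma fit over all genes. The number of arrays limits the precision.

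The labels name adrenocortical cells, and 12 of 12 adrenocortical genes were higher in Wnt+ at an unadjusted p under 0.05. Their mean lay between 8.74 and 9.24 in Wnt+ arrays and between 7.58 and 8.24 in SF1+ arrays, against a median of all genes of 3.13 to 3.23 per array. Mrap, the accessory protein of the ACTH receptor, was the 1 of the 12 that rose (1.68, SE 0.18, limma adjusted p = 0.0396), and it passed in 3 of 7 fits with arrays left out in turn. Nr5a1, whose regulatory sequence drives the SF1+ reporter, averaged 7.30 ± 0.38 (SD, n = 3) in the libraries labelled Wnt+ and 5.75 ± 0.47 (SD, n = 4) in those labelled SF1+, so it ran against its own label. The limma fit called 53 of 20719 genes at an adjusted p under 0.05, and 42 of these were lower in Wnt+.

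The promoters of the GTPase genes are shown first because interferon-responsive genes share short sequence elements near their starts. Gamma-activated sites, which respond to interferon gamma, were searched for as TTCNNNGAA, and interferon-stimulated elements, which IRF factors bind, as GAAANNGAA, each on both strands with overlaps counted. The RefSeq promoter table (build GRCm38.p6, 250 bases before to 50 after each start) held 9 promoters of 8 of the genes, with 2 for Gbp3, while Gbp6 and Iigp1 are named only. In each line the 110 bases before the start run 5′ to 3′ on the gene's strand, and capitals mark the motif matches. The 4 guanylate-binding protein genes on chromosome 3 read as follows.
Gbp2 (chr3:142620553-142620662, + strand): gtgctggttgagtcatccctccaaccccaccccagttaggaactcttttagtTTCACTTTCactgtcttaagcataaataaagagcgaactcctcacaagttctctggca
Gbp3 (chr3:142559934-142560043, + strand): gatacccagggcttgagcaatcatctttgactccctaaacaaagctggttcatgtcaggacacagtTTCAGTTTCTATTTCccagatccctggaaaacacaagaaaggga
Gbp5 (chr3:142496824-142496933, + strand): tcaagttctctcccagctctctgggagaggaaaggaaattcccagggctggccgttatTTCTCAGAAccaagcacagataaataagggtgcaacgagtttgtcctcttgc
Gbp7 (chr3:142530226-142530335, + strand): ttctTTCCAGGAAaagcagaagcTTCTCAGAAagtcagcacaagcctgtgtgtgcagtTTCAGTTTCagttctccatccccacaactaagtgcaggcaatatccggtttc

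In Gbp2 the single match was an interferon-stimulated element on the reverse strand, 58 to 50 bases before the start. Gbp3 held 2 overlapping elements of this kind, which run from 44 to 30 bases before its start. Gbp5 had a gamma-activated site 52 to 44 bases before the start, and outside the stretch shown it had another at 245 to 237 bases and an interferon-stimulated element at 164 to 156 bases. Gbp7 had 2 gamma-activated sites, at 106 to 98 and at 87 to 79 bases, and an interferon-stimulated element at 52 to 44 bases.

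The immunity-related GTPase genes that had a promoter, all from chromosome 11, are shown to compare the spacing of the motifs.
Irgm1 (chr11:48871421-48871530, - strand): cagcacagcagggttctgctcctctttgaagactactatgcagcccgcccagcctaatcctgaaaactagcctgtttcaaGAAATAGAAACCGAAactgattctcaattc
Irgm2 (chr11:58214867-58214976, + strand): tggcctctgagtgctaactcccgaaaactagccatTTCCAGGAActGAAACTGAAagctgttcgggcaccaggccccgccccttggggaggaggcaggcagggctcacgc
Igtp (chr11:58199446-58199555, + strand): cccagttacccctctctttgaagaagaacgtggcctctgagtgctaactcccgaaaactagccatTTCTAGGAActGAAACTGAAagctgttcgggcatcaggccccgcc
Tgtp1 (chr11:48992247-48992356, - strand): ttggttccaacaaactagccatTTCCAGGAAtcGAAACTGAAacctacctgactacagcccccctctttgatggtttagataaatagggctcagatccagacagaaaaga

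Irgm1 had 2 overlapping interferon-stimulated elements, from 30 to 16 bases before the start, and no match to the gamma-activated site. In Irgm2, Igtp and Tgtp1 a gamma-activated site started 11 bases before a forward interferon-stimulated element. These pairs began 75 bases before the start in Irgm2, 45 bases in Igtp and 88 bases in Tgtp1. The spacing was noticed in these sequences. Around the pair, the Irgm2 and Igtp stretches are nearly identical. Tgtp1 has the same letters as Irgm2 in both motifs and just before them, and differs in the bases between the motifs. Irgm2, Igtp and Tgtp1 can therefore not be taken as separate examples of the spacing. The spacing occurred in 8 of 32851 promoters (0.0244%), those of Adar, Gm12185, Igtp, Irgm2, LOC115488470, Olfr382, Tgtp1 and Tgtp2. This count takes related genes, such as Tgtp1 and Tgtp2, as separate promoters.

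Over the group, the gamma-activated site occurred in 5 of 9 promoters, against 8.3% of all 32851 promoters. The interferon-stimulated element occurred in 8 of 9 promoters, against 8.56% of all, and both motifs together in 5, against 1.07% of all. A match of this kind describes the letters in the window and not a bound site.

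**Figure D1:**
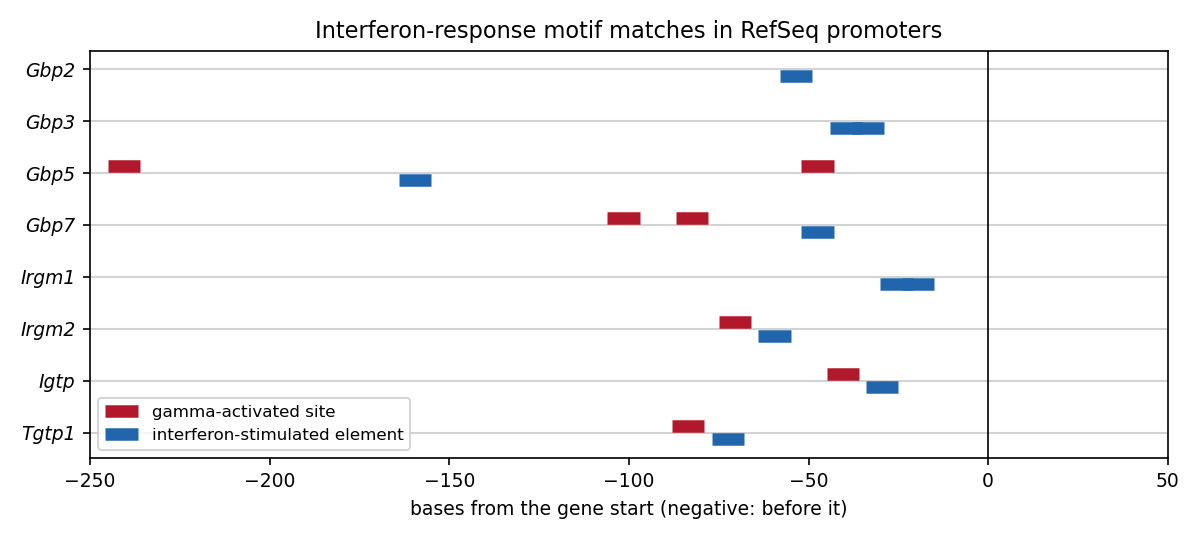
Positions of motif matches in the RefSeq promoters of 8 GTPase genes, in bases from the gene start (negative values lie before it). Red bars are gamma-activated sites and blue bars interferon-stimulated elements, and the red and blue pairs of Irgm2, Igtp and Tgtp1 have the same spacing.

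All 9 measured GTPase genes had lower mean values in Wnt+ than in SF1+ libraries, by 2.59-fold for Gbp2 to 4.71-fold for Gbp6. None of the 9 passed an adjusted p of 0.05 over all genes (limma adjusted p of 0.0732 to 0.228), where 0.256% of all genes passed in either direction and 0.203% as lower in Wnt+. With the authors' deposited p-values adjusted over all genes the count was also 0. At an unadjusted limma p under 0.05, 9 of 9 were lower, against 7.89% of all genes, and 0 were higher, against 7.61% of all genes. Every Wnt+ array lay below every SF1+ array for 8 of 9 genes, against 7.07% of all genes, and 9 of 9 were at least 2-fold lower, against 2.95% of all genes. The median difference was -1.56 for the 9 genes and 0.02 for all genes.

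Of the 5 guanylate-binding protein genes in the group, Gbp6, from the gene cluster on chromosome 5, had the largest difference. Its log2 values were 5.99, 4.65 and 4.99 in Wnt+ replicates 1, 2 and 3, against 7.81, 7.20, 7.85 and 6.93 in SF1+ replicates 1, 2, 3 and 4. The groups lay well apart, with the highest Wnt+ array below the lowest SF1+ array by 0.94. The difference was -2.24 (SE 0.37, 95% interval -3.11 to -1.36, limma adjusted p = 0.0732).

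Gbp3 belongs to the guanylate-binding protein cluster on chromosome 3. It measured 5.15, 4.42 and 4.21 in the Wnt+ arrays, against 6.94, 6.45, 6.72 and 5.76 in the SF1+ arrays. The groups did not overlap, and the SF1+ array nearest to Wnt+ was replicate 4. Its difference was -1.88 (SE 0.33, 95% interval -2.66 to -1.09, limma adjusted p = 0.0855).

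Gbp7, known in mouse macrophages for helping to assemble the NADPH oxidase on phagosomes, had the smallest standard error of the group. Values were 5.59, 5.14 and 4.61 in Wnt+, against 6.50, 6.49, 6.87 and 6.20 in SF1+. The SF1+ arrays kept close together and the Wnt+ arrays were spread more widely below them. Means were 5.11 ± 0.49 (SD, n = 3) in Wnt+ and 6.52 ± 0.28 (SD, n = 4) in SF1+, a difference of -1.40 (SE 0.25, limma adjusted p = 0.0863).

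Gbp5, which promotes assembly of the NLRP3 inflammasome in mouse macrophages, was at 4.42, 4.52 and 4.06 in Wnt+, against 6.01, 6.13, 6.59 and 4.71 in SF1+. Here the Wnt+ arrays were the tight group, and SF1+ replicate 4 came within 0.19 of the highest of them. The difference was -1.53 (SE 0.42, limma adjusted p = 0.165).

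Gbp2, which is recruited to the vacuoles of Toxoplasma in mouse cells, was the gene whose groups overlapped. Its values were 5.58, 5.19 and 4.16 in Wnt+, against 6.32, 6.38, 7.20 and 5.51 in SF1+. Wnt+ replicate 1 lay just above SF1+ replicate 4, and the other arrays kept to the order of the groups. The difference of -1.37 had the largest standard error of the group (SE 0.46, 95% interval -2.47 to -0.28, limma adjusted p = 0.228).

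The IRGM regulators, whose loss in mice lets effector GTPases damage the cell's own organelles, gave similar differences. Irgm1 was at 6.51, 5.86 and 5.95 in Wnt+, against 7.63, 7.68, 8.31 and 7.02 in SF1+. Irgm2 was at 6.81, 6.21 and 5.80 in Wnt+, against 8.05, 7.83, 8.20 and 7.08 in SF1+. For both genes the highest Wnt+ array was replicate 1 and the lowest SF1+ array was replicate 4, with no overlap between the groups. The difference was -1.56 for Irgm1 (SE 0.31, limma adjusted p = 0.105) and -1.52 for Irgm2 (SE 0.33, limma adjusted p = 0.120).

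The effector GTPases were Iigp1, the protein also called Irga6, and Tgtp1, also called Irgb6, both of which load onto parasite vacuoles. Iigp1 measured 7.89, 6.44 and 6.08 in Wnt+, against 9.37, 8.86, 9.22 and 8.44 in SF1+. Tgtp1 measured 8.30, 6.90 and 7.60 in Wnt+, against 9.57, 9.25, 9.52 and 8.95 in SF1+. In both genes the SF1+ arrays formed the narrower group and Wnt+ replicate 1 stood above the other Wnt+ arrays. The difference was -2.17 for Iigp1 (SE 0.45, limma adjusted p = 0.113) and -1.72 for Tgtp1 (SE 0.33, limma adjusted p = 0.0972).

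Both effector genes have close relatives, and whether the array tells them apart was not tested. A second transcript cluster annotated to Tgtp1 differed by -1.73, and the related Iigp1b differed by -1.34 (SE 0.27, limma adjusted p = 0.109). By family, the median difference was -1.53 for the 5 guanylate-binding protein genes and -1.64 for the 4 immunity-related GTPase genes.

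**Figure D2:**
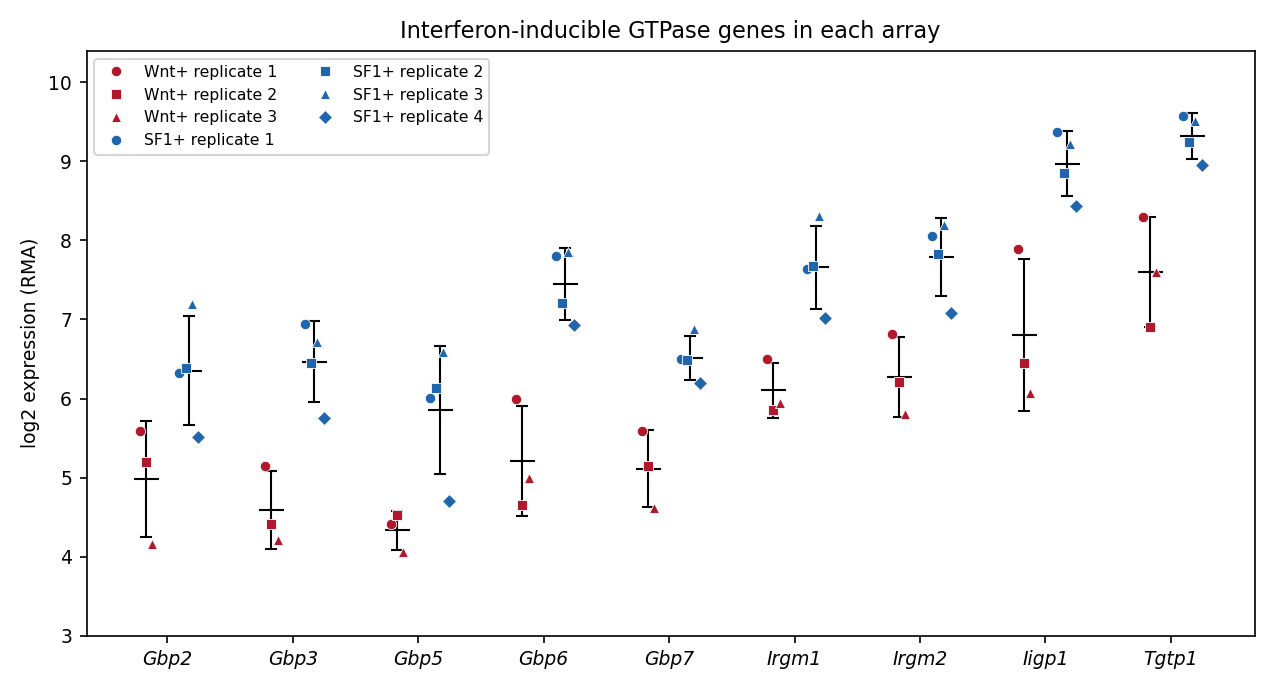
Log2 expression (RMA) of the 9 measured GTPase genes in each array, with Wnt+ (red, n = 3) left of SF1+ (blue, n = 4), and black marks for the mean ± SD. Red and blue points are apart for every gene except Gbp2, where Wnt+ replicate 1 (5.58) is above SF1+ replicate 4 (5.51).

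The genes shared some positions in the order of arrays but not the whole order. SF1+ replicate 4 was the lowest SF1+ array in 9 of 9 genes, a position it held in 21.8% of all genes. Wnt+ replicate 1 was the highest Wnt+ array in 8 of 9 genes, against 29.6% of all genes, and Gbp5 was the exception. Wnt+ replicate 3 was the lowest Wnt+ array for 6 genes, against 30.5% of all genes. For Gbp6, Irgm1 and Tgtp1 it was Wnt+ replicate 2, against 33.7% of all genes. The highest SF1+ array was replicate 3 for 6 genes, against 24.7% of all genes. For Gbp3, Iigp1 and Tgtp1 it was SF1+ replicate 1, against 27% of all genes.

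Averaged over the 9 genes, the log2 level was 6.25, 5.48 and 5.27 in Wnt+ replicates 1, 2 and 3, against 7.58, 7.36, 7.83 and 6.73 in SF1+ replicates 1, 2, 3 and 4. The group means were 5.67 ± 0.51 (SD, n = 3) in Wnt+ and 7.38 ± 0.47 (SD, n = 4) in SF1+. Replicates of the same group were also more spread for these genes than for the typical gene. The median range between arrays was 1.01 in Wnt+ and 1.12 in SF1+ for the 9 genes, against 0.331 in Wnt+ and 0.355 in SF1+ for all genes. All genes include dim ones, whose differences RMA compresses, and genes of matched level were not compared. The lowest value of any of the 9 genes was 4.06, above the median of all genes in every array.

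Other GTPases of the same families were described next, from a list of 19 names of which 12 were measured. All 12 had a negative difference, with a median of -1.85, and 0 passed the adjusted threshold. At an unadjusted p under 0.05, 8 were lower and 0 higher in Wnt+, and the same number of genes, 8, had every Wnt+ array below every SF1+ array. Gbp9, a neighbour of Gbp6 on chromosome 5, was at 6.14, 4.10 and 4.74 in Wnt+, against 7.60, 7.31, 7.83 and 7.27 in SF1+. Its difference of -2.51 (SE 0.45, limma adjusted p = 0.0871) exceeded that of Gbp6 in size by less than its own standard error. Gvin1, a very large interferon-inducible GTPase, differed by -1.89 (SE 0.28) and had the lowest adjusted p of this list (limma adjusted p = 0.0622). Gbp4 differed by -2.13 and Gbp2b by -1.85. Gm12250, the effector GTPase also called Irgb10, was at 2.72, 2.52 and 2.91 in Wnt+, against 3.88, 4.97, 6.08 and 3.29 in SF1+. Its Wnt+ arrays lay below the median of all genes, in the range where RMA compresses differences.

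The 4 genes of that list with an unadjusted p of 0.05 or more were dim, near the median of all genes or below it. Irgc1, a testis gene that is not known to respond to interferon, was at 2.95, 2.74 and 2.82 in Wnt+, against 3.10, 2.75, 2.87 and 2.81 in SF1+. Irgq, a divergent relative without the usual GTPase signature, differed by -0.06 (SE 0.10), with a 95% interval of -0.31 to 0.19. Gbp11 differed by -0.15 and Gbp8 by -0.60 (limma adjusted p = 0.343). Intervals as narrow as that of Irgq hold for the array signal, and in dim probes they do not bound the change in RNA.

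The GTPase genes on chromosomes 3, 5 and 11 lie in clusters, and the neighbours of Iigp1 on chromosome 18 were not examined. On each side, the nearest measured protein-coding gene outside the families was taken in RefSeq order (GRCm38.p6). At the chromosome 3 cluster of Gbp5, Gbp7, Gbp3, Gbp2b and Gbp2, the neighbours Pdlim5 and Kyat3 differed by -0.55 (SE 0.38) and 0.25 (SE 0.12). Beside the chromosome 5 cluster, Abcg3 differed by -0.40 (SE 0.18) and Lrrc8b by 0.30 (SE 0.25). Around the chromosome 11 group of Irgm2 and Igtp, Mrpl22 differed by 0.73 (SE 0.43) and Zfp692 by 0.14 (SE 0.33). At the other chromosome 11 group, with Irgm1 and Tgtp1, Trim7 differed by 0.16 (SE 0.11). Kyat3 (2.91 in Wnt+ and 2.67 in SF1+), Abcg3 (2.48 and 2.89) and Trim7 (2.54 and 2.37) averaged below the median of all genes. In such dim probes small differences do not bound the change in RNA.

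The olfactory receptor gene Olfr1396, next to the Irgm1 and Tgtp1 group, was singled out after its values were seen, because it was lower in Wnt+ like the GTPases. It was at 4.35, 3.18 and 3.47 in Wnt+, against 4.86, 5.15, 5.91 and 6.22 in SF1+. Every Wnt+ array lay below every SF1+ array, but SF1+ replicate 4 was the highest SF1+ array here and the lowest in the GTPase genes. The difference was -1.87 (SE 0.41, limma adjusted p = 0.120).

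Upstream of the GTPases, the ligand gene Ifng fell in Wnt+. It encodes interferon gamma, made mainly by T and natural killer cells. Its log2 values were 2.53, 2.85 and 3.03 in Wnt+, against 4.55, 4.63, 5.19 and 4.19 in SF1+. The groups did not overlap, SF1+ replicate 4 was again the lowest SF1+ array, and the Wnt+ values lay below the median of all genes in each array. The difference was -1.83 (SE 0.24, limma adjusted p = 0.0495). With each array left out in turn it was -1.99 to -1.65, and it passed in 1 of 7 such fits, without Wnt+ replicate 1 (limma adjusted p of 0.0495 to 0.158). Of 11 interferon ligand genes, Ifng was the 1 that passed, and 3 were lower and 0 higher at an unadjusted p under 0.05. Ifnb1, the interferon beta gene, differed by 0.04 (SE 1.07) with values of 6.06, 5.39 and 2.56 in Wnt+, against 3.29, 6.37, 5.38 and 3.47 in SF1+. Its arrays were so spread within each group that its 95% interval ran from -2.49 to 2.57.

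In the signalling chain, Irf1, a transcription factor that interferon gamma induces, was at 7.47, 6.75 and 7.40 in Wnt+, against 8.74, 8.33, 8.38 and 8.35 in SF1+. It differed by -1.24 (SE 0.20, limma adjusted p = 0.0715) with no overlap.

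Of 18 receptor, kinase, transcription factor and regulator genes described here, 0 passed the adjusted threshold, 12 were lower and 0 higher at an unadjusted p under 0.05, and the median was -0.69. The receptor chains Ifngr1 and Ifngr2 differed by -1.33 (SE 0.41) and -0.85 (SE 0.20), each without overlap. The kinase gene Jak1 differed by -0.50 (SE 0.13), and Jak2 by -0.84 (SE 0.39) with overlapping arrays. Usp18, an interferon-induced brake on the type I receptor, differed by -1.68 (SE 0.28, limma adjusted p = 0.0732). The suppressor Socs1 differed by -0.15 (SE 0.14). It averaged 3.35 in Wnt+ and 3.50 in SF1+, near the median of all genes, where small differences do not bound the change in RNA.

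**Figure D3:**
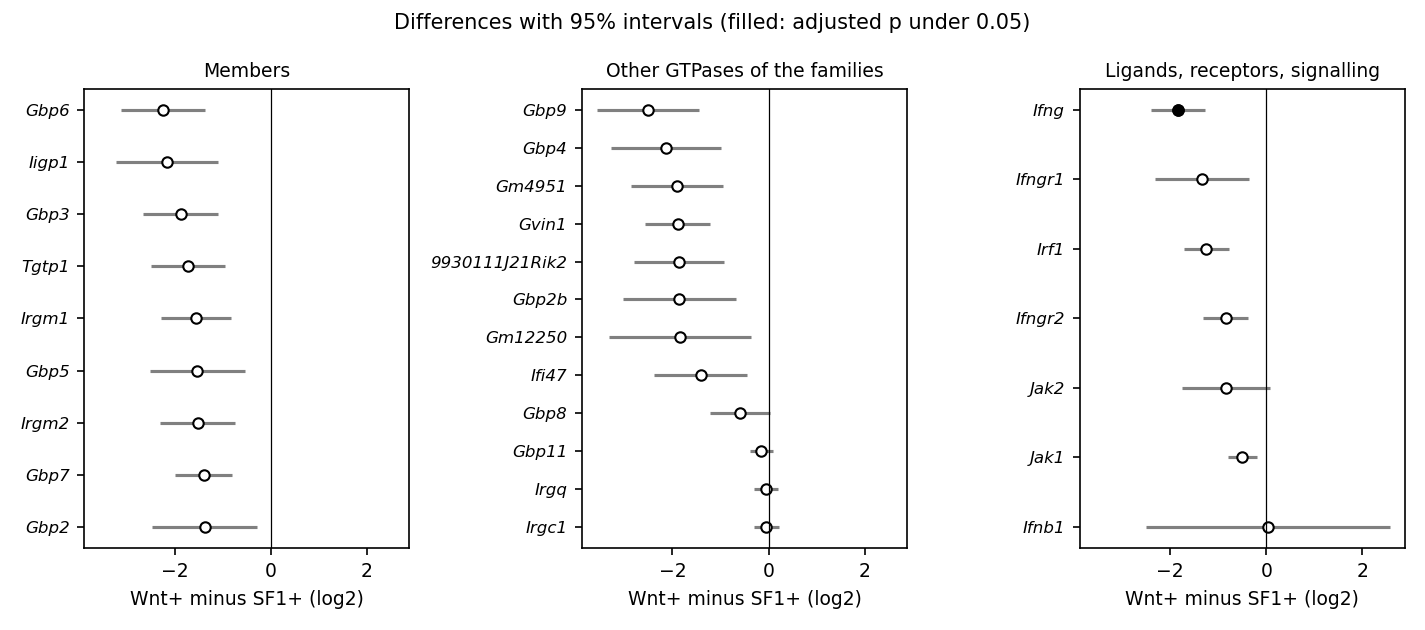
Differences, Wnt+ (n = 3) minus SF1+ (n = 4) on the log2 scale, with 95% intervals, for the 9 measured GTPase genes, 12 other GTPases of their families, and 7 genes of interferon signalling. The filled point, Ifng at -1.83, passed an adjusted p of 0.05.

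Other textbook targets of interferon gamma differed less as a list. Of 26 such genes, 0 passed the adjusted threshold, 13 were lower and 0 higher at an unadjusted p under 0.05, and the median was -0.54. Cxcl9, a chemokine that attracts activated T cells, differed by -2.27 (SE 0.55), and Tap1, which carries peptides to class I molecules, by -1.81 (SE 0.33). The immunoproteasome subunit Psmb8 differed by -1.02 (SE 0.14, limma adjusted p = 0.0561), and the class I gene H2-K1 by -0.77 (SE 0.15). In the class II pathway the master regulator Ciita differed by -0.18 (SE 0.15) and the invariant chain gene Cd74 by -0.30 (SE 0.27), both with overlapping arrays. Ciita averaged 2.85 in Wnt+ and 3.03 in SF1+, below the median of all genes, in the range where RMA compresses differences.

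Partners through which the GTPases act were mixed. Of 20 autophagy, ubiquitin and inflammasome genes, 0 passed, 5 were lower and 1 higher at an unadjusted p under 0.05, and the median was -0.11. The autophagy conjugation genes Atg3, Atg5, Atg7 and Atg12 are needed to direct GTPases to vacuoles. They differed by 0.12 (SE 0.19), -0.10 (SE 0.17), -0.05 (SE 0.15) and -0.22 (SE 0.19). Atg5 averaged 3.51 in Wnt+ and 3.61 in SF1+, near the median of all genes, where small differences do not bound the change in RNA. The inflammasome genes Casp4 and Gsdmd, which act after GBPs expose bacterial lipopolysaccharide, differed by -1.82 (SE 0.70) and -1.32 (SE 0.25). The arrays of Casp4 overlapped between the groups and those of Gsdmd did not. The higher gene was Map1lc3a, an autophagosome protein, at 0.73 (SE 0.17, limma adjusted p = 0.126).

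Beyond the fixed lists, the genes whose 7-array profile was nearest to the mean profile of the 9 GTPases were taken from 5347 genes with a range of at least 1. The measure was the mean absolute distance in log2 units after each gene's own mean was removed. Parp14, an interferon-induced ADP-ribosyltransferase, was the nearest at 0.0665, with 6.40, 5.52 and 5.30 in Wnt+, against 7.52, 7.48, 7.71 and 6.77 in SF1+. It was followed by Ccnyl1 (0.100), the checkpoint ligand gene Cd274 (0.172), Ifi204 (0.178), Iigp1b (0.183), the class I gene H2-T22 (0.185), the urokinase receptor gene Plaur (0.196) and Rtp4 (0.199). Measured against the mean profile of the other members, the GTPases themselves ranged from 0.105 for Irgm2 to 0.355 for Gbp5. The 8 genes are the smallest distances out of 5347, while the members were not picked by distance. Their distances therefore do not rank the 8 genes against the members. The 8 genes were picked for likeness to a profile that is lower in Wnt+, so a difference in this direction was fixed by the choice. Of the 8 genes, H2-T22 passed the adjusted threshold, at -1.72 (SE 0.22, limma adjusted p = 0.0455). With arrays left out in turn H2-T22 passed in 1 of 7 fits, without Wnt+ replicate 1 (limma adjusted p of 0.016 to 0.158).

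Marker lists of other cell types were set beside these values. Of 16 endothelial markers, 15 were lower in Wnt+ at an unadjusted p under 0.05 and 0 passed the adjusted threshold, with a median difference of -1.54. Their mean was 7.38, 5.32 and 6.63 in Wnt+ replicates 1, 2 and 3, against 7.57, 7.81, 8.08 and 8.05 in SF1+ replicates 1, 2, 3 and 4. All 3 Wnt+ arrays lay below all 4 SF1+ arrays in this mean.

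Of 14 T and natural killer cell markers, 5 fell in Wnt+ (Lck, Cd7, Nkg7, Klrd1 and Il2rb) and 13 were lower at an unadjusted p under 0.05. Their mean was 2.80 to 2.82 in Wnt+ arrays, below the median of all genes, and 4.05 to 5.54 in SF1+ arrays. Of 9 plasmacytoid dendritic cell markers, 4 fell (Siglech, Bst2, Irf8 and Klk1), and 7 were lower and 1 higher at an unadjusted p under 0.05. The higher gene was Ly6d, which differed by 0.64 (SE 0.12, limma adjusted p = 0.0871) with every Wnt+ array above every SF1+ array. The list mean was 4.27 to 4.37 in Wnt+ and 5.51 to 6.03 in SF1+. With each array left out in turn, Siglech passed in 7 of 7 fits and the other 8 T, natural killer and dendritic cell genes that fell in 1 or 2 of 7.

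Of 5 genes of all leukocytes, 5 were lower at an unadjusted p under 0.05 and 0 passed, with means of 6.26 to 6.99 in Wnt+ and 7.27 to 8.52 in SF1+. Of 12 macrophage markers, 1 was lower and the median difference was -0.19, with means of 5.66 to 6.39 in Wnt+ and 5.68 to 7.18 in SF1+. Of 7 B cell markers, 0 differed at an unadjusted p under 0.05, with means of 2.41 to 2.66 in Wnt+ and 2.55 to 2.78 in SF1+. Chromaffin markers were higher in Wnt+ in 4 of 9 genes at that level, and capsule and fibroblast markers differed in 0 of 9. The part of these cell types in the GTPase differences was not tested.

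**Figure D4:**
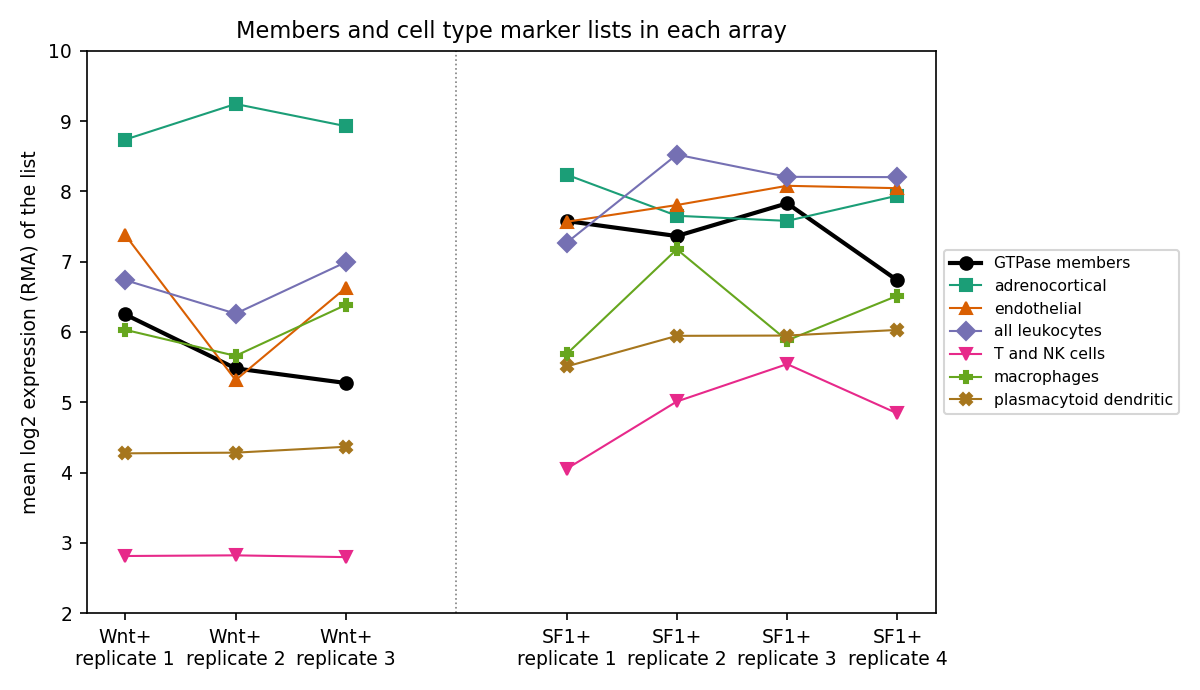
Mean log2 expression (RMA) of the 9 GTPase genes and of 6 cell type marker lists in each array, Wnt+ replicates left of SF1+ replicates. The GTPase mean is highest in SF1+ replicate 3 (7.83) and lowest in Wnt+ replicate 3 (5.27), and the lines join arrays only to help follow a list.

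The authors' deposited table also gave, for the same transcript clusters, folds of a separate experiment, Bio over Vehicle in 4 pairs of mouse adrenocortical tumor cell line samples, whose sample values were not analysed here. In the authors' deposited table all 9 GTPase genes had a fold under 1, as did 53.9% of all genes. Their median fold in the authors' deposited table was 0.544, against 0.991 for all genes. The authors' deposited table gave 8 of 9 genes a fold under 1 with an unadjusted paired p under 0.05, against 17.3% of all genes.

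Gbp2 had the lowest fold in the authors' deposited table, at 0.414 (the authors' paired test, p = 0.000293), followed by Tgtp1 at 0.420 and Gbp3 at 0.443. For Iigp1, Irgm1 and Gbp7 the authors' deposited table held folds of 0.505, 0.544 and 0.614. Irgm2 at 0.716 and Gbp5 at 0.803 were nearer to 1 in the authors' deposited table. Gbp6, which had the largest difference between Wnt+ and SF1+, was at 0.960 in the authors' deposited table (the authors' paired test, p = 0.640), while Gbp2 had the smallest difference between the sorts and the lowest fold there.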

How the data were processed

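Expression was measured in 7 arrays, 3 Wnt+ and 4 SF1+. The labels state more Wnt+ sorts than were analysed here. The authors deposited log2 values per transcript cluster, made per the file headers with RMA on perfect-match probes. The submitters' processing notes add the oligo package. Its version and the genome build were not given in the sources used here. This method gives the probe values of all arrays 1 distribution, while the array medians of the gene values still ranged from 3.13 to 3.23. It also compresses differences of dim genes. The deposited table also holds unadjusted p-values and linear fold ratios, per the file headers.

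Of 28944 clusters, 23812 had a symbol. Where a gene had several clusters the brightest on average was kept (20719 genes). The group difference was estimated by limma 3.58.1 (R 4.3.3) for all genes, with group as the only term, two-sided, and adjusted by Benjamini-Hochberg over all genes at 0.05. The fit was tested on simulated data. RefSeq GRCm38.p6 tables gave current symbols, gene order and promoters, and the arrays' own build was not needed. Plots used Python 3.11.15.

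The members, lists and motifs were chosen with earlier results of these data known. Named genes were the members, every list gene past the threshold, otherwise up to 6 per list by role or smallest p, the 8 nearest profiles, and the neighbouring genes; Gbp8, Gbp11, Jak1, Jak2 and some others in longer lists were named to account for a count. Same-numbered arrays did not deviate together (Pearson's r of -0.217, 0.0344 and -0.214), so numbers were not treated as pairs. A drawing sheet with 7 sample columns was not used. A gene of the signalling list is not reported here.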

Additional observations from a re-analysis of the deposited data

How the results depend on the processing

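Of 20 alternatives, 8 change the test, the genes tested or the source of the values and left the differences of the 9 GTPase genes as they were. In the other 12, which gave 108 differences, 0 changed sign and they ranged from -2.71 to -0.96. Over all 20, 15 of 180 values passed an adjusted p of 0.05. The number of GTPase genes that passed was 0 with all arrays and 0 to 5 with arrays left out singly. The 5, without Wnt+ replicate 1, were Gbp3, Gbp6, Gbp7, Iigp1 and Tgtp1. It was 6 when only genes above the median level were tested (those and Irgm1) and 4 with trended variance (Gbp3, Gbp6, Iigp1 and Tgtp1), and 0 in the other 17 alternatives. The cause was not tested. The count over all genes was 53 and moved more. It was 1 to 312 with each array left out (312 without Wnt+ replicate 1, 76 without SF1+ replicate 1). When only the 10359 genes above the median level were tested, it was 221 of these. It was 146 with trended variance, 33 with array weights, 30 with robust variance and 27 with arrays centred on their medians. The count was 1 at an adjusted p under 0.01, and 0 with no moderation or with the authors' p-values. With a replicate block, which drops SF1+ replicate 4 from the contrast because it has no partner, the count was 0 and the median difference of the GTPase genes was -1.85, against -1.56 without the block. Array numbers and signal over background limit what can be called.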
